A study of Mus musculus with 4 samples.

Results

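Genes that give the intestinal epithelium its identity were followed in DNA from the intestine of young and old mice. The set held 42 listed genes: 20 of enterocytes, 6 of epithelial structure, 5 of goblet cells, 3 of Paneth cells, 3 of stem cells and 5 transcription factors of the gut. Probes were taken by gene name, after the distance in a name was removed and names shared by neighbouring genes were split. Under these names 33 of the 42 were on the arrays, with 190 probes, and 31 had at least 1 measured region, of 14020 autosomal gene names measured in all. The 9 names Lct, Sis, Slc15a1, Muc2, Fcgbp, Lyz1, Ang4, Gpr49, which is the older name of Lgr5, and Cubn matched no probe and were not analysed here. Some of the names are older symbols, since Lyzs is now Lyz2 and Tacstd1 is Epcam.

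The lining of the gut is renewed from stem cells at the base of the crypts, which give rise to absorptive enterocytes with a brush border of microvilli, mucus-secreting goblet cells and Paneth cells that release antimicrobial proteins. Caudal-type homeobox factors and nuclear receptors such as Hnf4a help to hold these cells to an intestinal fate and switch on the genes of digestion and absorption. Methylation of cytosine in CpG dinucleotides near a gene's start is commonly linked to silencing, and many genes of differentiated gut cells have starts that are poor in CpG.

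The series asked whether DNA methylation differs between old and young intestine. Genomic DNA came from C57BL/6 mice, an inbred strain, aged 3 or 32 months, with no other treatment or allele named in the labels. The 3-month DNA carried the dye Cy3 and the 32-month DNA the dye Cy5 on each of 2 Agilent arrays, of which the first is labelled for chromosomes 1 to 8 and the second for the remaining chromosomes. Each array held 1 sample per age, and the dyes were never exchanged, so an age, its dye and its sample cannot be told apart and no test was possible. Neither the segment of intestine nor the number or sex of the animals is given in the sources used here, and whole tissue holds muscle, stroma, nerve and immune cells beside epithelium. A different mix of cells and a different methylation within a cell type cannot be told apart in such DNA, and DNA signal gives no check of the labelled tissue by expressed markers.

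Signal was above background for most probes on both arrays. Between 70.1% and 72.5% of probes were well above background at each age, and no probe was saturated. Every value below is a processed signal, or the log2 ratio of 32-month over 3-month signal after the median of the array was set to 0. How methylated DNA was selected before labelling is not given in the sources used here, so values are described as signal and not as methylation. A probe was usable when well above background at 1 age or both, and probes at most 1000 bp apart under the same name in the files formed a region, measured when at least 2 were usable. Probes named for a gene alone and probes named for a promoter it shares with a neighbour were therefore kept in separate regions, even where they lie close together. Of the 190 member probes 154 (81.1%) were usable, against 75.5% of autosomal probes, and 136 of these (88.3%) were well above background at both ages, against 89.4%. The SD given for a region is over its probes. Its probes share 1 sample per age, so it says nothing of the spread between mice. On the second array X-chromosomal regions had a median log2 ratio of -0.07, against 0.089 for the autosomes of that array. By the rule given below 20 of 508 X-chromosomal regions were called lower, against 0.451% of the array's autosomal regions. Of the Y-chromosomal regions 2 of 9 were called higher, against 2.76% of those autosomal regions. The part of such a difference between the animals in the members' values was not tested.

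Most epithelial identity genes had nearly the same relative signal at both ages. A call of higher signal at 32 months required a median log2 ratio of at least 1, a 2-fold difference, and all usable probes of the region above 0. A call of lower signal required a median of at most -1 and all of them below 0. Of the 36 member regions 1 was called higher, in Spdef, against a background of 2.05% of the 14835 autosomal regions. Another was called lower, in Espn, against 0.519% of those regions. Both shares of members are single regions, too few to set apart from the background. Of the 36 regions 32 (88.9%) lay within 0.5 of 0, against 86.5% of autosomal regions. The 31 genes had a median log2 ratio of -0.015 with 15 above and 16 below 0, and over all autosomal genes the median was 0.016.

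The arrays differed slightly in the centre of their autosomal values. On the first array the 17 member genes had a median of -0.023 against -0.032 for all its autosomal genes. On the second, 14 member genes had a median of 0.19 against 0.086. Calls of higher signal made up 1.36% of the first array's autosomal regions and 2.76% of the second's, and calls of lower signal 0.585% and 0.451%. Espn lies on the first array and Spdef on the second, so each was called on the array where its direction was the more frequent one.

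**Figure D1:**
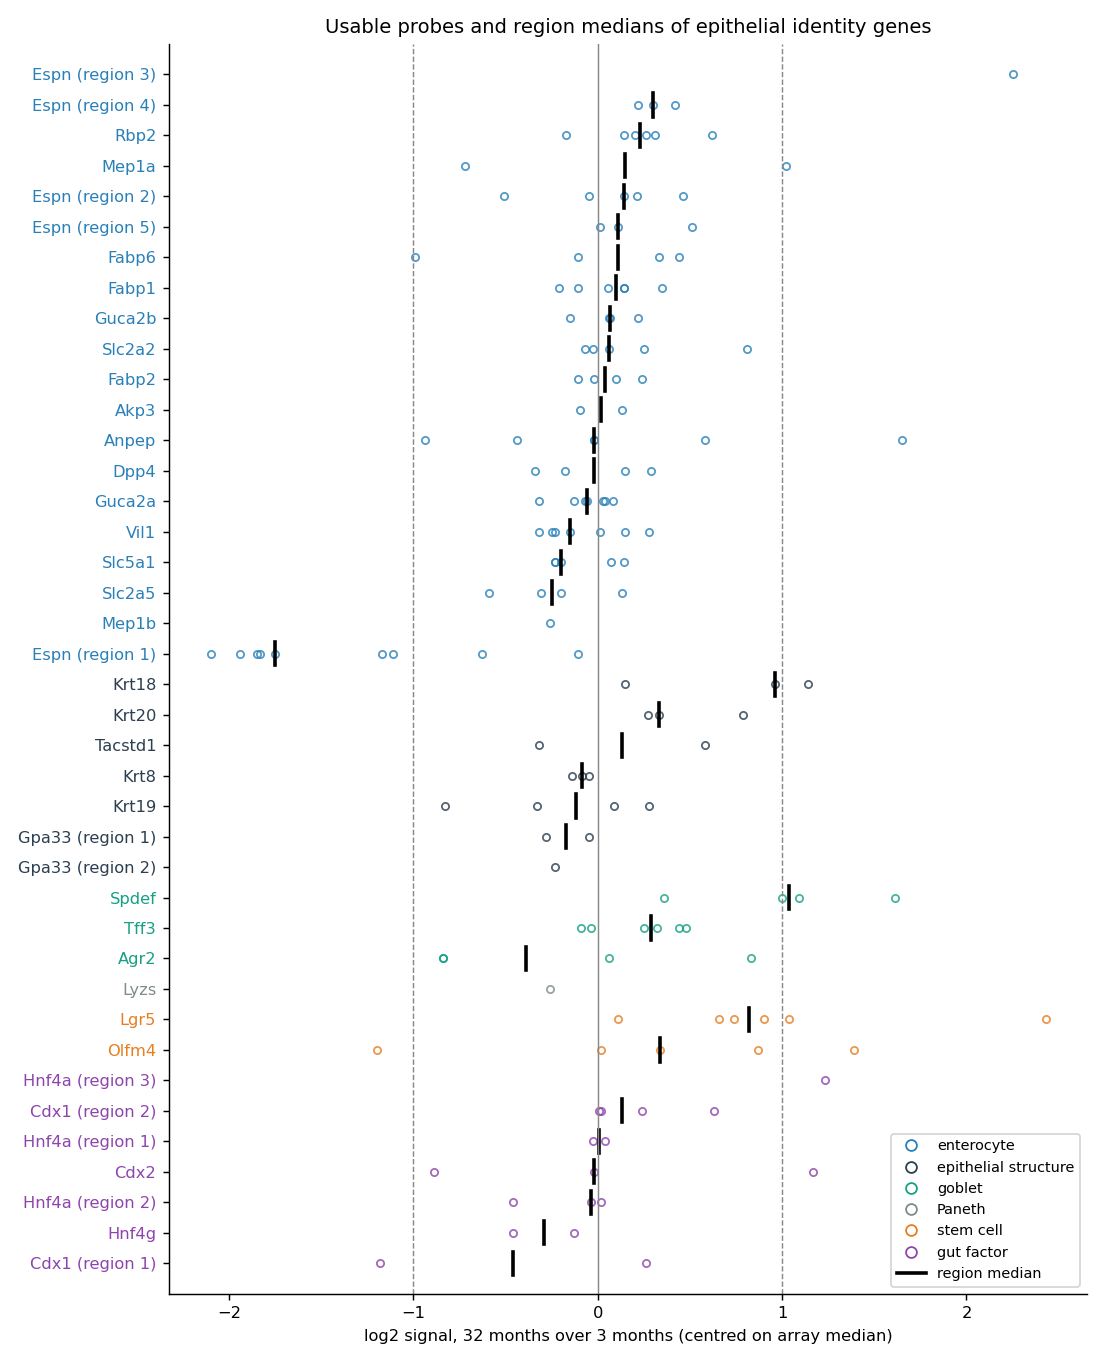
Log2 ratio of 32-month over 3-month signal (x axis) for each usable probe (open circles) and the region median (black bars) of the epithelial identity genes described here, coloured by group, with dashed lines at -1 and 1. Regions of a gene are numbered by position. A region with a single usable probe has no bar. Espn region 1 is the one median beyond -1 and Spdef the one beyond 1, with Krt18 at 0.96 and Lgr5 at 0.82 next to it.

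**Figure D2:**
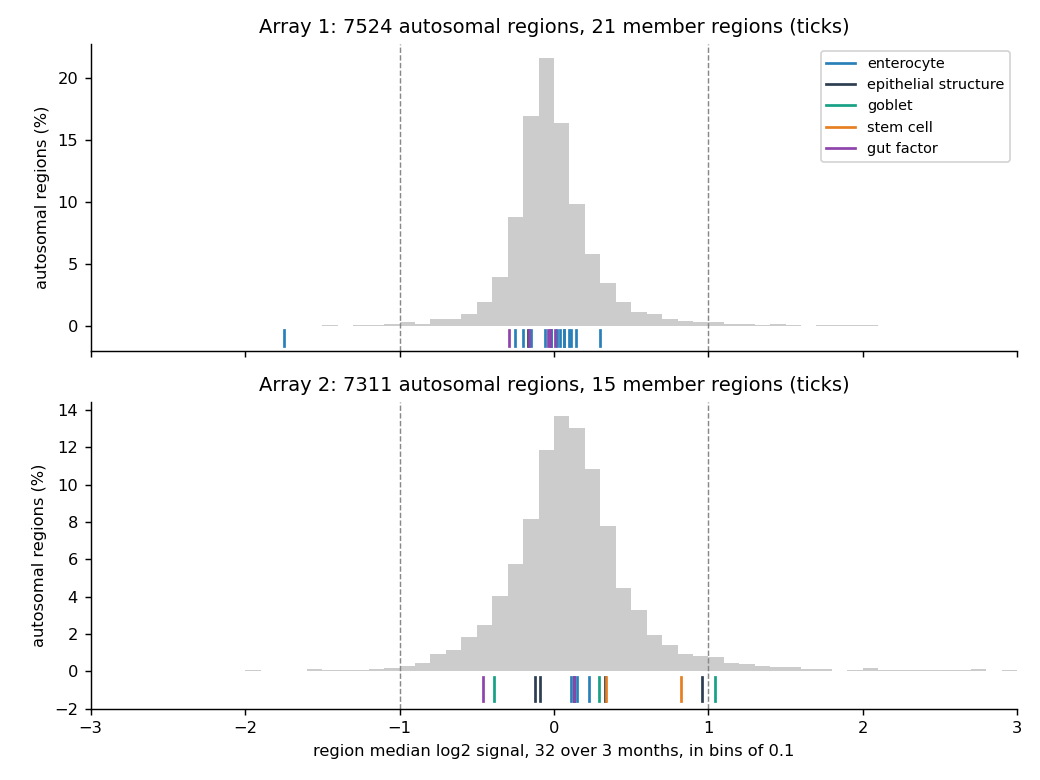
Share of autosomal regions (y axis, percent) by region median log2 ratio in bins of 0.1 (x axis) on each array, with a coloured tick below for each member region. Values beyond -3 and 3 are not drawn. Member ticks sit under the bulk of both distributions, apart from Espn at -1.75 on the first array and Krt18, Lgr5 and Spdef at the right on the second.

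Espn showed the largest difference of the set, in a single stretch of the gene. Its product espin bundles actin filaments, in the microvilli of the brush border as well as in the hair cells of the ear. The called region, chr4:150972360-150973710 in the positions of the files, holds 9 probes, annotated as promoter or inside the gene. All 9 were usable, well above background at both ages and below 0. The median log2 ratio was -1.75 ± 0.68 (SD over 9 probes), a 3.35-fold lower signal at 32 months, and it ranked at 23 from the lowest of the 14835 autosomal regions. Of the 157 autosomal regions with at least 9 usable probes, a cut set at this region's own count, it was the only one called lower (0.637%). Another 2 were called higher (1.27%). The shares over all autosomal regions were 0.519% and 2.05%, so a single call sets the region apart from neither.

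Probes of the called Espn region are shown because the size of the difference steps between neighbours within it. RefSeq lists 3 start sites for Espn. The reverse complements of 2 probes of the called region match the window of 1 of these sites exactly. They lie at bases -82 to -38 and -196 to -149 counted from the start site. The probes below are named by their distance from the region's first probe and are written as deposited, with each CpG in capitals. The RefSeq stretch of 250 bases before that start, 4:152128926-152129175 on the minus strand of GRCm38.p6, holds 3 CpG. Its coordinates belong to another build than the positions of the files, for which no build is stated.
Espn, 403 bp: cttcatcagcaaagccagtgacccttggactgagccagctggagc
Espn, 514 bp: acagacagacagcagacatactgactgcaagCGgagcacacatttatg
Espn, 633 bp: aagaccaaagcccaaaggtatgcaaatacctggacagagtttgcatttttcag
Espn, 807 bp: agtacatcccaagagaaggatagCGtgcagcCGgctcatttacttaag
Espn, 935 bp: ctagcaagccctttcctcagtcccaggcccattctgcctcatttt
Espn, 250 bases before the start: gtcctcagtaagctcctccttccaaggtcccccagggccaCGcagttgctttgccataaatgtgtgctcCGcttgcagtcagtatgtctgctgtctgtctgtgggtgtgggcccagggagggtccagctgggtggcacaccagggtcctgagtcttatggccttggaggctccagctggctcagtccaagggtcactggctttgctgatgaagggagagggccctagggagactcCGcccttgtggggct

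The first 5 Espn probes were lower at 32 months by nearly the same ratio. Processed signals at 3 and 32 months were 329000 and 91300 for the first probe, 418000 and 125000 for the second, and 275000 and 71700 for the third, the probe printed at 403 bp. The fourth, at 514 bp, had 243000 and 56800, and the fifth, at 633 bp, had 204000 and 57600. In each of these 5 probes the 3-month signal was the higher, and their log2 ratios lay between -2.1 and -1.75 with a median of -1.85 over 686 bp. Of the 3 printed probes of this stretch 1 holds a CpG.

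Beyond a gap of 122 bp the ratio was smaller. The probe at 807 bp had signals of 2550 at 3 months and 1650 at 32 months, a log2 ratio of -0.63. The probe at 935 bp had 11400 and 10600, a log2 ratio of -0.11, the closest to 0 in the region. The remaining probes of the region had 633 and 283, and 2120 and 988, at log2 ratios of -1.17 and -1.11. All 4 probes of this stretch of 544 bp were thus lower at 32 months too, with a median of -0.87, and 2 of the 4 were past 2-fold.

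**Figure D3:**
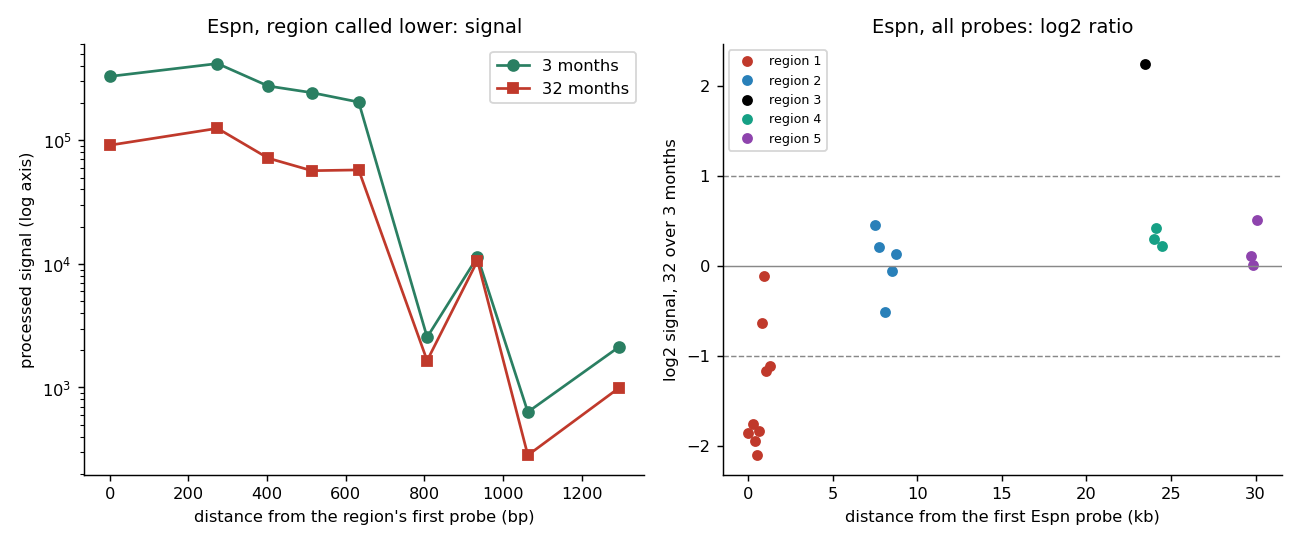
Left, processed signal (log axis) of the 9 probes of the called Espn region at 3 months (green circles) and 32 months (red squares) against distance in bp from the first probe. Right, log2 ratio of all 21 Espn probes against distance in kb from the first, coloured by region, with dashed lines at -1 and 1. The 32-month line runs below the 3-month line at every probe on the left, and on the right only region 1 lies below -1.

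Regions at the other start sites of Espn were not called. A region from position 150979844, 6134 bp beyond the end of the called one, had a median of 0.14 ± 0.36 (SD over 5 probes). Its signals at 3 and 32 months were 3120 and 4290, 26800 and 31100, 341 and 240, 1310 and 1270, and 521 and 577, so 3 probes were higher and 2 lower at 32 months. It holds a probe matching the window of another RefSeq start, at 0.21. The promoter shared by Espn and the neighbouring gene Hes2 from position 150996335, 22625 bp away, had 0.3 ± 0.1 over 3 probes, with signals of 867 and 1070, 81.9 and 110, and 781 and 912. All 3 were higher at 32 months by less than 2-fold, and the first of them matches the remaining start window. A further stretch of that shared promoter, 28363 bp away, had 0.11 ± 0.26 over 3 probes.

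A lone Espn probe went the other way. It is annotated inside the gene at position 150995829, 22119 bp beyond the called region, and had a signal of 13200 at 3 months and 63100 at 32 months. Its log2 ratio was 2.25, the second highest among the 154 usable member probes after a probe of Lgr5. It was the single probe there under the name Espn alone, so it formed no measured region, although probes named for the promoter shared with Hes2 lie within 1000 bp. The nearest probe, which starts at position 150996335 in the promoter shared with Hes2, had 0.3, so the large ratio was not shared by its neighbour.

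The other enterocyte genes lay close to 0. Of the 20 listed, 16 were on the arrays and 15 were measured, in 18 regions. Beside the Espn region none was called. The median over the 15 genes was 0.017, from -0.3 to 0.23. Of the 18 regions 17 (94.4%) lay within 0.5 of 0, against 86.5% of all autosomal regions. So few regions do not set these genes apart from that background.

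Sugar transporters had values slightly below or near 0. Slc2a5, the fructose transporter of the brush border, had -0.25 ± 0.3 over 4 probes on chromosome 4. Its signals at 3 and 32 months were 482 and 390, 478 and 418, 235 and 157, and 174 and 191, so 3 of the 4 probes were lower at 32 months. Slc5a1, the sodium-coupled glucose transporter, had -0.2 ± 0.18 over 5 probes, and Slc2a2, a glucose transporter of the basolateral membrane, had 0.063 ± 0.36 over 5. None of these sizes reached the 2-fold line, and the spread over probes was about as large as the median or larger in each.

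Lipid and retinoid carriers showed small values as well. Fabp1 and Fabp2, which bind fatty acids, had 0.1 ± 0.2 over 6 probes and 0.041 ± 0.15 over 4. Fabp6, the bile acid carrier of the ileum, had 0.11 ± 0.65 over 4 probes. Rbp2, which carries retinol, had 0.23 ± 0.25 over 6 probes, 5 of them above 0, and was the highest of the enterocyte genes when the regions of Espn were averaged. Its neighbour in rank, Mep1a at 0.15, differed from it by less than the spread over probes of either gene.

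Brush border enzymes varied more between their own probes than between the ages. Anpep, an aminopeptidase, had a median of -0.019 ± 0.9 over 6 probes. At its ends were a probe of 720 at 3 months and 2270 at 32 months, at 1.65, and a probe of 130 and 68.1, at -0.94. The brightest probe of the gene had 80800 and 121000, at 0.58. Mep1a, a meprin subunit, had 0.15 ± 1.23 over 2 probes of opposite sign, at 1.02 and -0.72, the former not well above background at 3 months. The peptidase gene Dpp4 had -0.019 ± 0.29 over 4 probes and the alkaline phosphatase gene Akp3 0.017 ± 0.16 over 2. Mep1b, the other meprin subunit, had 1 usable probe of 4, at -0.26 and not well above background at 32 months, and was not measured.

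Genes of the microvillus core and of secreted peptides lay near 0 with tight probes. Vil1, which encodes the actin-binding protein villin, had -0.15 ± 0.23 over 7 probes, 4 of them below 0. Guca2a encodes guanylin, a peptide that acts on a guanylate cyclase of the gut epithelium. All 7 of its probes were bright, from 8930 to 19900 at 3 months and from 8600 to 18300 at 32 months. Its median was -0.059 ± 0.13. Guca2b, which encodes uroguanylin, had 0.065 ± 0.15 over 4 probes. Every Guca2a probe was within 0.32 of 0.

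Among the genes of epithelial structure, Krt18 came closest to a call. Krt18 and Krt8 encode the paired keratins of simple epithelia. The Krt18 region, chr15:101855539-101856073, is annotated as promoter and had a median of 0.96 ± 0.53 (SD over 3 probes), just short of the threshold. One probe had 314 at 3 months and 628 at 32 months, at 1.14. The next, the dimmest of the 3, had 84.1 and 149, at 0.96, and so set the median. The last had 1070 and 1080, at 0.15. The last of these matches the RefSeq window of the gene, at bases -222 to -177 from the start site, so the probe nearest the start differed least. Krt8 on the same chromosome had -0.088 ± 0.048 over 3 probes, with 323 and 266, 1580 and 1350, and 375 and 330 and with all 3 slightly lower at 32 months.

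The Krt18 probes are shown because those with CpG and the one without differ in ratio. The Krt18 probe without CpG is also the one nearest the start, so CpG and position cannot be told apart. No split by CpG was seen in the printed probes of Espn. Espn probes with CpG had -2.1 and -0.63, and those without had -1.94, -1.83 and -0.11. The printed Lgr5 probes hold 1 CpG each and so cannot show such a split. They had 2.43 and 0.11. The Krt18 probes are named by distance from the region's first probe, with CpG in capitals.
Krt18, 0 bp: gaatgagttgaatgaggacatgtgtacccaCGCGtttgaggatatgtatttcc
Krt18, 129 bp: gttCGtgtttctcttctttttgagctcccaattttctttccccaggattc
Krt18, 489 bp: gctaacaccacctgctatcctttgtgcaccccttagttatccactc

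The remaining genes of this group were further from the threshold, and the median over all 6 was 0.021. Krt20, a keratin of differentiated gut cells, had 0.33 ± 0.28 over 3 probes, with 68 and 77.6, 58.7 and 92, and 1320 and 1450. Its 2 dim probes were not well above background at 3 months, so their ratios are bounds. Krt19 had -0.12 ± 0.49 over 4 probes and Tacstd1, the epithelial cell adhesion molecule, 0.13 ± 0.64 over 2. Gpa33, a surface antigen of gut epithelium, had -0.17 ± 0.16 over 2 probes of the promoter it shares with Dusp27, with 793 and 769, and 2400 and 1980. A lone probe inside Gpa33 was at -0.23, so all 3 usable probes of that gene were slightly below 0.

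Spdef was the member called higher at 32 months. It encodes an ETS-family factor required for goblet cell maturation. Its region, chr17:27456217-27457160, holds 4 probes, of which the first is annotated inside the gene and 3 as promoter. All were usable and well above background at both ages. Signals at 3 and 32 months were 1770 and 2060 for the probe inside the gene, and 635 and 1150, 663 and 1280, and 519 and 1440 for the promoter probes. Every probe was higher at 32 months, at log2 ratios of 0.36, 1.0, 1.09 and 1.61 in order of position, so that the ratio was larger with distance into the promoter. The median was 1.04 ± 0.51 (SD over 4 probes), a 2.06-fold difference, only just past the threshold, and it ranked at 414 from the highest of the 14835 autosomal regions, many of the others being uncalled. Without centring it was 0.9, after loess correction 0.88, after normexp background correction 0.99 and with arrays centred on usable probes 0.96, and in these settings it was not called.

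A probe of the Spdef promoter is shown with the RefSeq stretch before the start, 17:27728952-27729201 on the minus strand of GRCm38.p6, which holds 7 CpG in its 250 bases. The reverse complement of the probe at 478 bp from the region's first matches bases -205 to -155 from the start site. The probe at 895 bp, the one of largest ratio, lies further out.
Spdef, 478 bp: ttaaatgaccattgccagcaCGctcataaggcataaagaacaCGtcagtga
Spdef, 895 bp: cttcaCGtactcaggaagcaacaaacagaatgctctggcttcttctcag
Spdef, 250 bases before the start: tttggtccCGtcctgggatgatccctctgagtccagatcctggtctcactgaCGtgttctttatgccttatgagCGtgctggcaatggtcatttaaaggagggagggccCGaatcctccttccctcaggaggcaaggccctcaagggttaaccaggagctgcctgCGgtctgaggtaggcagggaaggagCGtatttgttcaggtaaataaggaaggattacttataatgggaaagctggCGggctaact

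The other measured goblet cell genes were not called. Tff3, a trefoil peptide secreted with mucus, had 0.29 ± 0.24 over 6 probes. Its signals were 82.2 and 104, 260 and 295, 2540 and 2250, 69 and 85.2, 73.5 and 62.7, and 252 and 273, with 4 of the 6 ratios above 0. Agr2, an endoplasmic reticulum protein needed for mucin folding, had -0.39 ± 0.81 over 4 usable probes, with 123 and 62.6, 76 and 123, 122 and 61.8, and 285 and 270. Both of its low ratios came from probes not well above background at 32 months, and with only the 2 probes above background at both ages the median was 0.45. The probes of Spdef, from 0.36 to 1.61, overlapped in range with those of Tff3, from -0.09 to 0.48, and with those of Agr2, from -0.84 to 0.83, so neighbours in this order were not apart beyond their probes. Of the names listed for Paneth cells, Lyz1 and Ang4 matched no probe, and only Lyzs, now Lyz2, was on the arrays. It had 1 usable probe of 3, of 100 at 3 months and 75.7 at 32 months, at -0.26. No region of that group was measured, and this probe is not taken as a value of Paneth cells.

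Both measured stem cell genes had medians above 0 at the main setting. They lie on the second array, where 4291 of 6909 autosomal genes were above 0 as well. Lgr5, a receptor for R-spondins that marks crypt base stem cells, had 0.82 ± 0.78 (SD over 6 probes) in chr10:114991315-114992569, with all 6 probes well above background at both ages and above 0. Signals at 3 and 32 months were 2500 and 4680, 1860 and 2820, and 7300 and 10500 for the 3 probes inside the gene, at 1.04, 0.74 and 0.66. The promoter probes had 4910 and 8290, 6560 and 32000, and 208 and 204, at 0.9, 2.43 and 0.11. The outermost of the promoter probes was nearly equal at both ages, while the other 5 were higher at 32 months, and the ratio of 2.43 was the highest of all usable member probes. The region was not called at the main setting, was called after normexp background correction at 1.48, and had 0.68 without centring and after loess correction.

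The Lgr5 promoter probes are shown because these neighbours, each with 1 CpG in capitals, had the largest and the smallest ratio of the gene.
Lgr5, 947 bp: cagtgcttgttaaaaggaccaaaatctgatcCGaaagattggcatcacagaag
Lgr5, 1205 bp: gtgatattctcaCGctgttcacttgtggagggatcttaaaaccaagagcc

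Olfm4, a secreted glycoprotein that also marks crypt base stem cells, was less uniform. Its median was 0.34 ± 0.98 over 5 usable probes on chromosome 14. Signals were 59.9 and 99.7, 59.9 and 68.6, 218 and 519, 692 and 635, and 155 and 61.4, at 0.87, 0.34, 1.39, 0.015 and -1.2. Only 3 of these probes were well above background at 3 months and 4 at 32 months, so 3 of the 5 ratios are bounds. The probe at 1.39 overlaps the start site in the RefSeq window, and the probe at -1.2 is the last in position. After normexp background correction the Olfm4 median was -0.049, on the other side of 0, and with the probes well above background at both ages it was 0.7. Lgr5 and Olfm4 did not differ beyond their spread over probes.

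**Figure D4:**
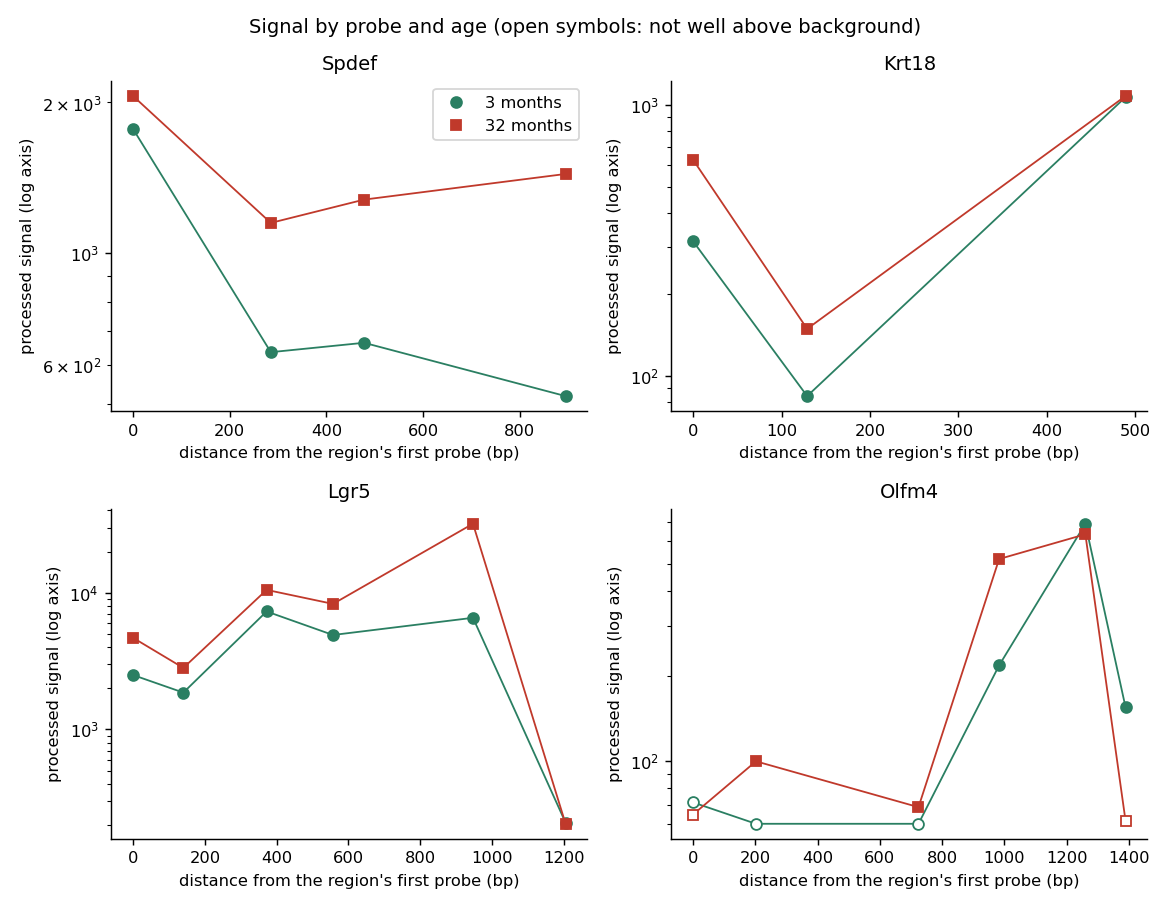
Processed signal (log axis, a scale of its own for each gene) at 3 months (green circles) and 32 months (red squares) for each probe of Spdef, Krt18, Lgr5 and Olfm4 against distance in bp from the region's first probe, with open symbols for values not well above background. The 32-month symbols lie above the 3-month symbols in all 4 Spdef probes and in the first 5 Lgr5 probes, meet them at the last Krt18 and Lgr5 probes, and lie on both sides in Olfm4.

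The gut transcription factors had 5 of 5 genes below 0, in 7 regions of which none was called. Their median over genes was -0.16, from -0.29 to -0.015. All 7 regions lay within 0.5 of 0, as did 86.5% of all autosomal regions. By region 5 lay below and 2 above 0, with a median of -0.037. Cdx1 was below 0 only as the mean of 1 region on each side. Most of these genes lie on the first array, where 4025 of 7111 autosomal genes were below 0. Hnf4g, a nuclear receptor related to Hnf4a, had -0.29 ± 0.23 over 2 probes, with 112 and 81.9, and 1180 and 1080, both lower at 32 months. Hnf4a, a nuclear receptor of enterocytes, had 0.0064 ± 0.043 over 2 probes and -0.037 ± 0.26 over 3 in stretches of a promoter shared with a neighbouring gene. A lone probe inside Hnf4a, with 162 at 3 months and 381 at 32 months, was at 1.23. It lies close to the second of these stretches but carries the name of Hnf4a alone, so it was not counted in that region's median. The group's median was 0.022 after normexp background correction and -0.0044 with dim probes kept, so its side of 0 rests on the processing.

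The caudal-type factors were measured by few probes. Cdx1 shares a promoter with Pdgfrb, a receptor gene of stromal cells, and probes of this kind cannot be assigned to one gene. A stretch of it on chromosome 18 had -0.46 ± 1.02 over 2 probes of opposite sign, with 200 and 217, and 460 and 184. Another stretch had 0.13 ± 0.29 over 4 probes, all above 0. Cdx2 had a median of -0.023 ± 1.03 over 3 probes, with 1960 and 4430, 101 and 54.8, and 157 and 155, at 1.17, -0.89 and -0.023. The brightest Cdx2 probe was higher at 32 months, and the low one was not well above background there.

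Starts of the members with a RefSeq window held somewhat fewer CpG than those of all autosomal genes in RefSeq. Windows from 250 bases before to 50 after the start were found for 26 of the 33 member genes on the arrays. Lgr5 is among those without a window. The median was 5.5 CpG against 8 over 25748 autosomal genes of assembly GRCm38.p6, which are not limited to genes on the arrays. The highest counts were 28 in Anpep, 18 in Cdx2 and 17 in Krt18, and Guca2a, Guca2b and Lyzs had 1 each. Spdef had 7, and the 3 windows of Espn had from 2 to 15, with 5 in the window of the called region. The sequence CCCGGG, a palindrome searched on both strands, was in a window of 3 of the 26 genes (11.5%), namely Akp3, Espn and Krt8, against 15.3% of the autosomal genes. The Espn stretch printed above does not hold it. Of the 154 usable member probes 77 had no CpG of their own, a larger share than the 40.8% of usable autosomal probes.

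Other epithelial genes had a median close to that of the members. Of 78 genes on a list of further epithelial genes 61 were measured, with a median of 0.018, 2 regions of 64 called higher and none lower, beside 2.05% and 0.519% of all autosomal regions. On the second array, which holds both called genes, 2.76% of autosomal regions were called higher. Those called were Apoa4, an apolipoprotein of enterocytes, at 3.21 ± 0.76 over 3 probes, and Gata4, a factor of the proximal gut, at 2.04 ± 1.33 over 6 probes. Both exceeded every member region.

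Markers of the other cells of the gut wall gave medians on both sides of 0. Immune cell genes had -0.052 over 32 of 34 genes, with 1 of 33 regions called higher. That region was in Ltb, a lymphotoxin subunit, at 1.63 ± 0.15 over 2 probes. Muscle and stromal genes had 0.023 over 23 of 25 genes with none of 28 regions called. Enteric neuron and glial genes had 0.15 over 17 of 20, with 1 of 18 regions called higher. It was in Hand2, a factor of enteric neurons, at 2.28 ± 2.53 over 8 probes. Single calls in lists of this size are too few to set apart from the 2.05% of all autosomal regions called higher. No list had a region called lower, against 0.519% of all autosomal regions. The part of these cells in the values of Espn, Spdef, Krt18 and Lgr5 was not tested.

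The calls of the 2 member regions depended on the setting. Across 9 alternatives Espn had medians from -1.92 after loess correction to -1.26 after normexp background correction, and was called lower in 8. After normexp correction its highest probe was at 0.35, so the demand for probes on 1 side was no longer met while the median stayed past 2-fold. Spdef ranged from 0.88 to 1.04 and was called in 5. Krt18 ranged from 0.58 to 1.0 and was called in none, and Lgr5 ranged from 0.68 to 1.48 and was called in 1. Both probe filters, the 500 bp gap and the authors' value table returned the main value in each of these regions. They could not do otherwise, since all probes there were well above background at both ages and closely spaced, and the table equals the processed signals. Apart from these settings Spdef was called only with means over probes, at 1.01.

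**Figure D5:**
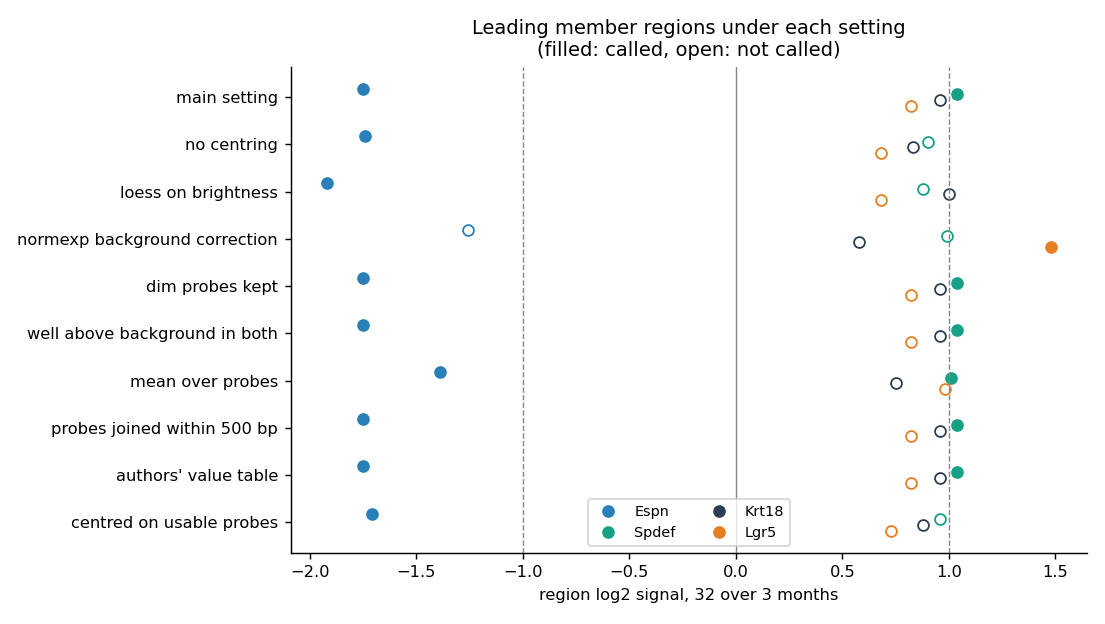
Region log2 ratio of 32-month over 3-month signal (x axis) for Espn, Spdef, Krt18 and Lgr5 under the main setting and 9 alternatives (y axis), filled where the region was called and open where not. Espn stays left of -1 in every setting, while Spdef, Krt18 and Lgr5 lie around the threshold of 1 in most.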

How the data were processed

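Per the submitters' processing notes, the scans were read with Agilent Feature Extraction 9.1.3.1. The deposited intensity analysed here is the processed signal. Per the file headers, the authors' scanner software had subtracted background, detrended the array and scaled the dyes linearly. Each channel was used once. The authors' value table equalled the processed signals in 100% of spots. Not given in the sources used here are the step that selects DNA by methylation, the genome build and any pooling of animals.

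Log2 ratios of 32-month over 3-month signal were centred on each array's median over positioned probes, 0.0044 and -0.14 before centring. Control spots and outlier-flagged probes (11 and 28) were left out. Regions were summarised by the median over usable probes and genes by the mean over regions. Median mean signals of 113 and 203 (3 and 32 months, first array) and 71.8 and 135 (second) stood against 80.0, 107, 61.7 and 107 in 507 negative controls, which limits dim probes, and the number of arrays limits the precision. No p-values were computed, with 1 sample per age. Alternatives covered centring, loess and normexp (limma 3.58.1, offset 50), probe filters, means, a 500 bp gap and the authors' value table. The calling rule was tested on log2 ratios of these data shuffled between probes, with known shifts planted in some regions.

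One member of the gut factor group is counted in the totals and is not reported here. The members and gene lists were chosen with earlier results of these data known. Probe values are given for called regions, for the 3 regions of largest absolute median in each group and for those nearest the threshold. The member not reported is an exception. Values for Anpep, Cdx2, Guca2a, Krt8, Lyzs, Mep1a, the Espn region from 150979844 and the lone probes of Espn and Hnf4a were chosen after they were seen.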

Additional observations from a re-analysis of the deposited data

How the results depend on the processing

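Depth here is signal over background, and with 1 sample per age no setting measures variation between mice. No paired analysis was possible because each age has 1 sample on each array. Member regions called higher numbered 1 at the main setting and 0 with no centring, after loess and with arrays centred on usable probes, an alternative chosen after seeing the data. Normexp background correction also ended the call of Spdef, while that of Lgr5 kept the count at 1, and it took member regions called lower from 1 to 0. Autosomal regions called lower numbered 77 at the main setting, 8 after normexp and 44 with dim probes kept. Higher and lower calls split as 304 and 77 at the main setting, 237 and 105 with no centring, and 418 and 8 after normexp. The gut factor median was -0.16, and 0.022 after normexp and -0.0044 with dim probes kept. The cause of these shifts was not tested. The other 127 values of counts and medians under an alternative stayed within 1.5 times the count or, for a median, within 1 SD over the genes of its list, a wide bound. They include those from the authors' value table, which equals the processed signals and could not move a value. Single regions that moved beyond the SD over their probes were Agr2 at 0.45 with probes above background at both ages, Gpa33 at 0.13, Hnf4g at 0.022 and Krt20 at -0.13 after normexp, and Hnf4g at -0.0044 with dim probes kept.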
